A study of Mus musculus with 26 samples.

Results

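The levels of 9 genes that encode chemokines and cytokines of the intestinal epithelium were followed in mouse intestinal organoids: Cxcl1, Cxcl2, Cxcl5, Cxcl16, Ccl20, Ccl25, Cx3cl1, Il18 and Tnf. They were taken by symbol from a list chosen with earlier results of these data known. All 9 were found among the 55385 gene identifiers of both deposited count tables. The organoids were grown from crypts of C57BL/6 mice in Matrigel, and every group shared a medium with EGF, Noggin, R-spondin, N-acetyl-L-cysteine, CHIR-99021, Y-27632, B27 and N2. The agents were AA (arachidonic acid) at 25 µM and PGE2 (prostaglandin E2) at 50 nM, set against vehicle, with 3 libraries each at days 1 and 3, while day 6 held 4 vehicle and 4 AA libraries only. The treatment protocol names PGE2 while the design text names a dimethyl analogue of it, and no source used here settles which of them the organoids received. Whether replicates came from distinct cultures or mice is not stated in the labels, so p-values measure only the spread between these libraries.

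Chemokines are small secreted or membrane-bound proteins that bind G protein-coupled receptors on leukocytes and direct their movement. Epithelial cells of the gut make several of them, some continuously and some after microbial or cytokine signals that act through the transcription factor NF-kB, and they store interleukin 18 as a precursor that is cleaved by caspase 1. AA is a polyunsaturated fatty acid from which cells make prostaglandins, PGE2 among them.

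Levels are given as CPM, the count relative to the library's total after TMM scaling (a trimmed mean of ratios between libraries), as mean ± SD over libraries. A group mean under 1 CPM is called near zero. Fold changes and adjusted p-values come from edgeR's quasi-likelihood test with Benjamini-Hochberg adjustment over all genes tested, and rose or fell is used only where the adjusted p was under 0.05. Libraries held 1.01e+07 to 1.46e+07 counts at days 1 and 3 and 1.61e+07 to 1.98e+07 at day 6. The share of mitochondrial ribosomal RNA was 6.74% to 10.3% at days 1 and 3 but at most 0.266% at day 6, and both sets of libraries were scaled separately, so levels at day 6 are given beside earlier ones without a test. All 8 epithelial markers examined (Epcam, Cdh1, Krt8, Krt18, Krt19, Vil1, Cdx2 and Cldn7) were at 1 CPM or more in every group. Of 14 immune cell markers, 2 reached 1 CPM, Cd68 and Cd14, and 3 or 4 were at 0 in each group, among them Tyrobp in 6 of the groups. The summed epithelial markers were 6844 to 7708 CPM with vehicle at day 1, 10441 to 10836 with AA and 13038 to 13699 with PGE2. Fibroblast and smooth muscle markers summed to 1.04 to 3.33 CPM over all groups. Of 4 endothelial markers, Kdr was at 0 in 7 groups while Tek averaged 0.162 CPM with vehicle and 35.1 with PGE2 at day 3. The part of these shifts in the results below was not tested.

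Of the 9 genes, 6 were at 1 CPM or more in all 8 groups: Cxcl16, Ccl20, Ccl25, Cx3cl1, Il18 and Tnf. Cxcl2 and Cxcl5 were near zero in all 8 groups, with 104 and 143 counts over all 26 libraries. Cxcl1 was near zero in 5 of 8 groups, with 256 counts in all. Levels of different genes were compared per kilobase of exon. The length used joins all annotated exons of a gene, from 1031 bases for Il18 to 7445 for Ccl25. Where the transcripts present are shorter than this, the per-kb level is too low, so the order between genes depends on these lengths. Which transcripts were present was not tested. In vehicle organoids at day 1 the order was Ccl25 at 16.2 CPM per kb, Cxcl16 at 9.20, Il18 at 5.65, Cx3cl1 at 5.39, Tnf at 2.52, Ccl20 at 1.43, Cxcl1 at 0.229, Cxcl5 at 0.121 and Cxcl2 at 0.0606. With PGE2 at day 1 Cxcl16 stood first at 43.6 CPM per kb and Il18 was next at 28.3, followed by Cx3cl1 at 8.55 and Ccl25 at 7.01. Il18 and Cx3cl1 are neighbours in the vehicle order and their per-kb levels there lay within 1 SD of each other.

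**Figure D1:**
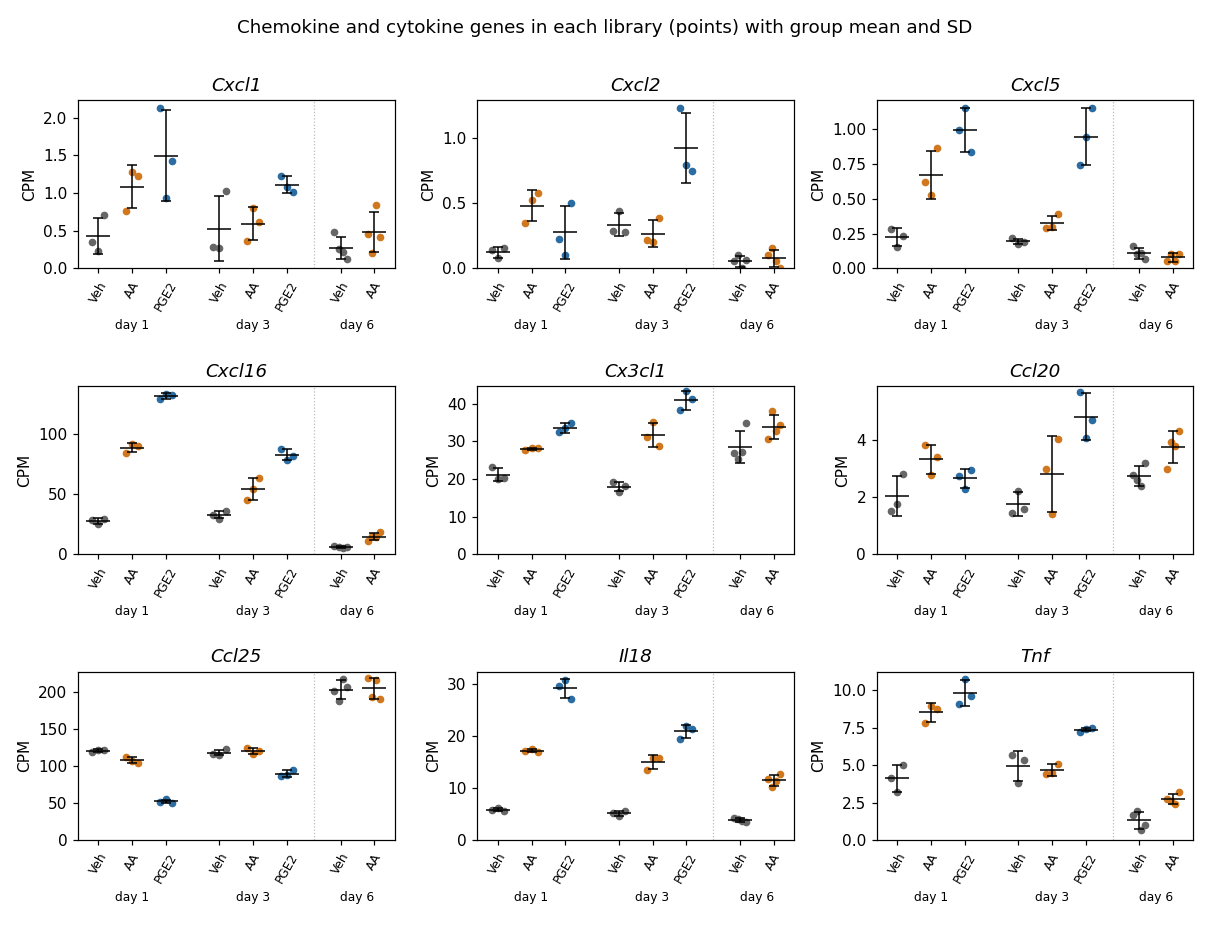
Level of each of the 9 genes in every library, in CPM on a linear axis from 0 that differs between panels, by group; points are libraries, horizontal lines are group means, error bars are SD, and the dotted line sets apart the day 6 libraries, which were scaled separately. Cxcl16 and Il18 are higher in every treated library than in any vehicle library of the same day, and Cxcl2 and Cxcl5 have group means under 1 CPM throughout.

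Promoters are shown for the 3 genes with a match to the NF-kB consensus, Cxcl1, Cxcl2 and Ccl20, and for Il18 as an example, chosen after its values were seen, of the 4 without one (Ccl25, Cx3cl1, Il18 and Tnf). RefSeq promoters (build GRCm38.p6, 250 bases before to 50 after the start) were on hand for 7 of the 9 genes, all but Cxcl5 and Cxcl16. Each run is 5′ to 3′ on the plus strand, and capitals mark a match to the NF-kB consensus on either strand. The windows are chr5:90890995-90891294 for Cxcl1, chr5:90903649-90903948 for Cxcl2, chr1:83116516-83116815 for Ccl20 and chr9:50554450-50554749 for Il18.
Cxcl1: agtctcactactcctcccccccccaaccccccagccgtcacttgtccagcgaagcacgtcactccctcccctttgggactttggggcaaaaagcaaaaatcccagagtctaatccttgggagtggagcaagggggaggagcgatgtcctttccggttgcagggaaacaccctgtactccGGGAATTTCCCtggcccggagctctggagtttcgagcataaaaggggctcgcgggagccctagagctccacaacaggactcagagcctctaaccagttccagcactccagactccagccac
Cxcl2: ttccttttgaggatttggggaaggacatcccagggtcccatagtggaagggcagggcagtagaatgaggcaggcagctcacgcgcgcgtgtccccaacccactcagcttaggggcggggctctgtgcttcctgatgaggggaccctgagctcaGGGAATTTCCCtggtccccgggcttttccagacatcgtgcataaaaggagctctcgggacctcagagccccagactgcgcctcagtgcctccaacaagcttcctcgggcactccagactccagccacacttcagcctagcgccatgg
Ccl20: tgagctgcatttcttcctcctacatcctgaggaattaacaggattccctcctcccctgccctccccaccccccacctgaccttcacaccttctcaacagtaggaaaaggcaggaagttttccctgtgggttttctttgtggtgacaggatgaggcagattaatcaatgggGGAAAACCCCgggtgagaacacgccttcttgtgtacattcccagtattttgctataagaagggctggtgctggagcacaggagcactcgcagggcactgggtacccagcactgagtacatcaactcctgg
Il18: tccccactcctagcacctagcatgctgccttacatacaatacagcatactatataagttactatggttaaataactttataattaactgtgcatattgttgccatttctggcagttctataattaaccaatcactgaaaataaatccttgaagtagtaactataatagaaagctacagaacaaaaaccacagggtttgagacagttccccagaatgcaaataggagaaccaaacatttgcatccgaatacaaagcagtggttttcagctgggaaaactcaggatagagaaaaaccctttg
The match began 71 bases before the start in Cxcl1, 97 in Cxcl2 and 80 in Ccl20. In Cxcl1 and Cxcl2 the marked stretch holds overlapping matches on both strands. A match was present in 3 of the 7 genes and in 5.14% of 27025 genes with a window. The AP-1 site TGANTCA was found in 0 of the 7 (8.97% of all genes), the CRE core TGACG in 1, Cxcl1 (23% of all genes), and TATAAA in 4 (15.7% of all genes). These matches describe letters in a window and do not show that a factor binds there.

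Cxcl1, Cxcl2 and Cxcl5 encode neutrophil-attracting chemokines that act through the receptor Cxcr2. All were sparse, and Cxcl1 and Cxcl5 passed the filter on low counts mainly through treated libraries. The tests of Cxcl1 and Cxcl5 are therefore given as a description and are not used as support. Cxcl1 and Cxcl2 are close relatives, and no source used here states how reads that match both were counted. Cxcl1 had 5, 3 and 9 counts in the vehicle libraries of day 1, 11, 17 and 17 with AA, and 28, 9 and 17 with PGE2. In CPM the vehicle libraries of day 1, at 0.231 to 0.703, lay below both treated groups, while AA at 0.760 to 1.28 and PGE2 at 0.939 to 2.13 overlapped. Cxcl1 rose 2.50-fold with AA (log2 fold change 1.32 ± 0.45, SE; adjusted p = 0.0198) and 3.55-fold with PGE2 (1.83 ± 0.44; adjusted p = 6.7e-04). The call for AA was lost without vehicle replicate 1 or 2 or AA replicate 2 or 3 (adjusted p up to 0.101). At day 3 Cxcl1 had 4, 3 and 11 counts with vehicle, 5, 8 and 8 with AA, and 15 in each PGE2 library. The vehicle and PGE2 groups overlapped there through vehicle replicate 3 at 1.03 CPM. Its log2 fold change at day 3 was 1.11 ± 0.45 with PGE2 (adjusted p = 0.0344; lost when any of 5 libraries was left out, all but vehicle replicate 3, and in DESeq2), and 0.18 ± 0.52 with AA (adjusted p = 0.812).

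Cxcl5 had 4, 2 and 3 counts with vehicle at day 1, 9, 7 and 12 with AA, and 13, 11 and 10 with PGE2. At day 3 it had 3, 2 and 2 with vehicle, 4, 3 and 5 with AA, and 9, 13 and 17 with PGE2. The PGE2 and AA libraries lay above the vehicle libraries in CPM on both days, by little for AA at day 3 (0.291 to 0.386 against 0.177 to 0.216). Cxcl5 rose 4.21-fold with PGE2 at day 1 (log2 2.07 ± 0.42; adjusted p = 1.1e-04) and 4.70-fold at day 3 (2.23 ± 0.44; adjusted p = 6.5e-05). With AA it rose 2.89-fold at day 1 (1.53 ± 0.44; adjusted p = 0.0074), though leaving out AA replicate 3 gave 0.0579 for the adjusted p. With a 1 CPM filter, or with only the vehicle and AA groups of day 1 fitted, Cxcl5 was not tested. Its day 3 value with AA was 0.72 ± 0.56 (adjusted p = 0.395). Cxcl2 had 1 to 8 counts in every library of day 1, 2 to 5 in the vehicle and AA libraries of day 3, and 15, 11 and 11 with PGE2 at day 3. It did not pass the filter of days 1 and 3. In the same test without the filter its log2 fold change was 1.86 with AA at day 1 (adjusted p = 0.0355) and 1.38 with PGE2 at day 3 (adjusted p = 0.0212), and the other AA and PGE2 comparisons with vehicle gave adjusted p of at least 0.380. At day 6 Cxcl1 had 2 to 15 counts, Cxcl2 0 to 3 and Cxcl5 1 to 3 per library, and none passed the filter of that table. Without the filter their log2 fold changes with AA at day 6 were 0.76 for Cxcl1 (adjusted p = 0.280), 0.46 for Cxcl2 (adjusted p = 0.793) and -0.46 for Cxcl5 (adjusted p = 0.760). Cxcl2 was at 0 in 1 library of each day 6 group, where a count of 0 allows up to 3 counts.

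Cxcl16 encodes a transmembrane chemokine that is shed by the protease Adam10 and binds Cxcr6 on T cells. Its CPM in the libraries of day 1 was 28.8, 25.3 and 29.3 with vehicle, 84.7, 91.9 and 89.9 with AA, and 129, 133 and 133 with PGE2. The day 1 groups did not overlap, with AA between vehicle and PGE2. Cxcl16 rose 3.19-fold with AA (log2 1.67 ± 0.09; adjusted p = 5.5e-12) and 4.74-fold with PGE2 (2.24 ± 0.09; adjusted p = 1.1e-14). In bulk RNA, more cells of a type and more RNA per cell cannot be told apart. At day 3 the vehicle libraries were at 33.1, 29.7 and 35.8 CPM, AA at 44.8, 54.2 and 63.6, and PGE2 at 88.1, 78.8 and 82.0. The order of groups was that of day 1, with smaller distances and with AA the most spread. The rises at day 3 were 1.65-fold with AA (0.72 ± 0.10; adjusted p = 4.2e-06) and 2.52-fold with PGE2 (1.34 ± 0.09; adjusted p = 9.2e-11). At day 6 vehicle was at 6.95, 6.19, 5.44 and 5.95 CPM and AA at 10.9, 14.8, 14.5 and 18.2. The day 6 groups did not overlap, and Cxcl16 rose 2.38-fold (1.25 ± 0.15; adjusted p = 8.2e-05).

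Cx3cl1 encodes the other transmembrane chemokine of the 9, shed by Adam10 and Adam17, whose receptor Cx3cr1 marks macrophages of the gut wall. Its CPM at day 1 was 23.1, 20.1 and 20.3 with vehicle, 27.8, 28.2 and 28.2 with AA, and 32.4, 33.6 and 34.9 with PGE2. At day 3 it was 19.1, 16.6 and 18.3 with vehicle, 31.2, 35.2 and 28.9 with AA, and 38.4, 43.3 and 41.3 with PGE2. On both days the 3 groups stood apart without overlap, in the order vehicle, AA, PGE2. Cx3cl1 rose 1.32-fold with AA at day 1 (log2 0.40 ± 0.08; adjusted p = 1.0e-04) and 1.75-fold at day 3 (0.81 ± 0.08; adjusted p = 1.7e-09). With PGE2 it rose 1.58-fold (0.66 ± 0.08; adjusted p = 1.5e-08) and then 2.27-fold (1.18 ± 0.08; adjusted p = 4.4e-14). At day 6 vehicle libraries were at 27.1, 25.4, 27.1 and 34.8 CPM and AA libraries at 30.6, 38.2, 32.8 and 34.3, so the groups overlapped through vehicle replicate 4. The day 6 difference, 0.25 ± 0.10, was not called (adjusted p = 0.0732) but was 0.36 without vehicle replicate 4 (adjusted p = 0.00173).

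Ccl25 encodes a chemokine made by small intestinal epithelium that draws Ccr9-bearing lymphocytes, and it was the only one of the tested genes to fall with AA or PGE2 against vehicle. Its CPM at day 1 was 119, 122 and 121 with vehicle, 112, 107 and 104 with AA, and 51.1, 54.9 and 50.6 with PGE2. The AA libraries lay just below vehicle and the PGE2 libraries far below both. Ccl25 fell 2.32-fold with PGE2 (log2 -1.21 ± 0.05; adjusted p = 1.1e-18) and 1.12-fold with AA (-0.16 ± 0.05; adjusted p = 0.0073). At day 3 it was at 117, 115 and 122 CPM with vehicle, 124, 116 and 119.9 with AA, and 85.8, 87.5 and 95.1 with PGE2. PGE2 remained below the other groups, which overlapped. The fall with PGE2 at day 3 was 1.32-fold (-0.40 ± 0.05; adjusted p = 3.5e-08), and the AA difference was 0.02 ± 0.05 with a 95% interval from -0.08 to 0.13. At day 6 Ccl25 was at 187 to 217 CPM with vehicle and 190.8 to 218 with AA (log2 0.01 ± 0.07; 95% interval -0.15 to 0.17; adjusted p = 0.923). Enterocyte markers summed to 958 to 980 CPM with vehicle, 1239 to 1358 with AA and 1004 to 1047 with PGE2 at day 1, to 1016 to 1057, 2087 to 2332 and 1926 to 2194 at day 3, and to 984 to 1311 with vehicle and 2169 to 2821 with AA at day 6. Paneth cell markers summed to 674 to 803, 413 to 457 and 579 to 689 at day 1, to 2022 to 2314, 691 to 875 and 668 to 710.0 at day 3, and to 4343 to 5350 and 1941 to 2451 at day 6. The part of these shifts in the values of Ccl25 or the other genes was not tested.

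Ccl20, the ligand of Ccr6 that follicle-associated epithelium makes, was low and its calls were the least secure among the 6 genes above 1 CPM. Its CPM at day 1 was 1.5, 1.77 and 2.81 with vehicle, 3.80, 2.78 and 3.38 with AA, and 2.74, 2.29 and 2.93 with PGE2. AA and vehicle overlapped by 1 pair of libraries, and PGE2 overlapped vehicle. Ccl20 rose 1.65-fold with AA (log2 0.72 ± 0.27; adjusted p = 0.0309) and was not called with PGE2 (0.41 ± 0.29; adjusted p = 0.236). The AA call at day 1 did not hold when vehicle replicate 1 or 2 or AA replicate 1 or 3 was left out (adjusted p up to 0.157). At day 3 it was at 1.44, 2.21 and 1.59 CPM with vehicle, 2.98, 1.4 and 4.02 with AA, and 5.67, 4.05 and 4.67 with PGE2. The PGE2 libraries lay above all the others and the AA libraries spread across the vehicle range. Ccl20 rose 2.74-fold with PGE2 at day 3 (1.46 ± 0.27; adjusted p = 3.1e-05) and kept that call with each library left out. Its rises with AA were 0.73 ± 0.29 at day 3 (adjusted p = 0.0477) and 0.45 ± 0.15 at day 6 (adjusted p = 0.0436), and each was lost in 8 of the other fits (14 at day 3, 15 at day 6), with the groups overlapping. At day 3 the call was lost without vehicle replicate 1 or 3 or AA replicate 1 or 3, and at day 6 without any 1 of 6 libraries (all but vehicle replicate 4 and AA replicate 1). At day 1 the 5 markers of follicle-associated epithelium and M cells summed to 42.2 to 45.3 CPM with vehicle. The sums were 33.6 to 36.3 CPM with AA and 20.1 to 22.3 with PGE2. Gp2 and Sox8 were at 0 in all of these groups. Only 1 of the 5 markers averaged 1 CPM or more with vehicle, and 2 did with AA and with PGE2. The vehicle sum thus came mainly from 1 gene, so the sums do not show a fall of the markers as a set. The part of these markers in the Ccl20 values was not tested.

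Il18 encodes an interleukin 1 family cytokine that gut epithelium holds ready-made. Its CPM at day 1 was 5.79, 6.15 and 5.55 with vehicle, 17.1, 17.5 and 16.9 with AA, and 29.7, 30.8 and 27.2 with PGE2. At day 3 it was 5.12, 4.69 and 5.53 with vehicle, 13.4, 15.9 and 15.8 with AA, and 19.5, 21.9 and 21.4 with PGE2. At day 6 it was 4.17, 4.04, 3.66 and 3.39 with vehicle and 11.8, 10.1, 11.5 and 12.7 with AA. No 2 groups of the same day overlapped, with vehicle lowest and PGE2 highest. Il18 rose with AA 2.94-fold at day 1 (log2 1.55 ± 0.10; adjusted p = 1.0e-13), 2.93-fold at day 3 (1.55 ± 0.11; adjusted p = 1.1e-12) and 3.00-fold at day 6 (1.59 ± 0.11; adjusted p = 2.9e-06). With PGE2 it rose 4.99-fold at day 1 (2.32 ± 0.10; adjusted p = 4.3e-19) and 4.10-fold at day 3 (2.04 ± 0.10; adjusted p = 1.0e-16). Every other fit tried kept these calls.

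Tnf encodes tumour necrosis factor, the classical inflammatory cytokine that activates NF-kB through Tnfrsf1a and Tnfrsf1b. Its CPM at day 1 was 4.14, 3.23 and 5.00 with vehicle, 7.80, 8.96 and 8.78 with AA, and 9.07, 10.7 and 9.62 with PGE2. All treated libraries of day 1 were above vehicle, and Tnf rose 2.06-fold with AA (log2 1.04 ± 0.15; adjusted p = 9.6e-07) and 2.36-fold with PGE2 (1.24 ± 0.15; adjusted p = 2.0e-08). At day 3 it was 5.69, 3.81 and 5.34 with vehicle, 4.44, 4.49 and 5.10 with AA, and 7.23, 7.44 and 7.45 with PGE2. AA lay within the vehicle range (-0.09 ± 0.16; adjusted p = 0.703), while PGE2 lay above it with a 1.48-fold rise (0.57 ± 0.15; adjusted p = 0.0017). At day 6 Tnf was at 1.66, 1.94, 0.666 and 1.02 CPM with vehicle and 2.72, 2.63, 2.42 and 3.19 with AA, again without overlap, and it rose 2.04-fold (1.03 ± 0.26; adjusted p = 0.0102). Immune cells also make Tnf. The summed immune markers were 7.92 to 9.53 CPM with vehicle, 12.5 to 14.4 with AA and 13.6 to 15.3 with PGE2 at day 1, and 10.8 to 11.5, 13.2 to 17.1 and 17.6 to 19.6 at day 3, through Cd14 and Cd68 with the others under 1 CPM. At day 6 these sums were 8.07 to 8.98 with vehicle and 8.90 to 10.8 with AA. Their part in the Tnf values was not tested.

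**Figure D2:**
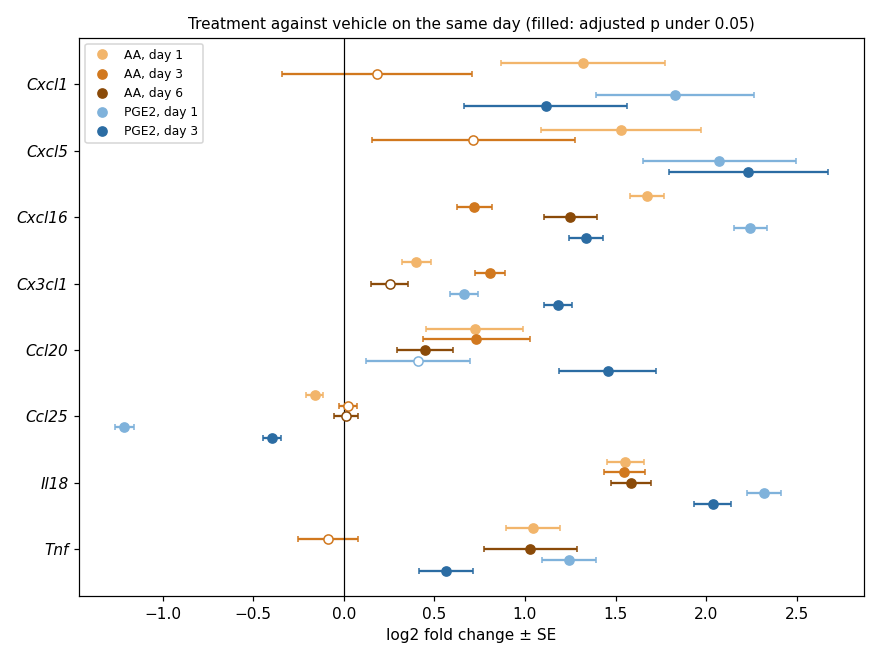
Log2 fold change against vehicle of each tested gene, by treatment and day; points are fitted values, bars are ± SE and open points did not pass the threshold. Il18 lies at 1.55, 1.55 and 1.59 with AA at days 1, 3 and 6, and Ccl25 lies below 0 with PGE2 on both days.

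Counted together, at day 1 with AA 7 of the 8 tested genes rose and 1 fell, beside 41.7% of all 14850 genes called in either direction (19.5% higher, 22.2% lower). With AA at day 3, 4 rose and 0 fell (41.3% of all genes called, 21.2% higher and 20.1% lower). With PGE2, 6 rose and 1 fell at day 1 (55.9% called, 27.0% higher and 28.9% lower) and 7 rose and 1 fell at day 3 (58.9% called, 28.9% higher and 30.1% lower). With AA at day 6, 4 of the 6 tested rose and 0 fell (30.7% of 14663 genes called, 15.3% higher and 15.5% lower). The share called at day 3 with AA, 4 of 8, is close to the share of all genes, and Cxcl1 and Cxcl5 entered the counts through their treated libraries, so the counts are a description. The AA and PGE2 comparisons use the same vehicle libraries. Vehicle organoids themselves changed in 1 of the 8 between days 1 and 3 (40.3% of all genes called, 19.8% higher and 20.5% lower). It was a fall of Cx3cl1 (log2 -0.23 ± 0.09; adjusted p = 0.0288). That call was lost in DESeq2 (adjusted p = 0.0568), without TMM, in a fit of only the compared groups, and without vehicle replicate 1 of day 1 or replicate 2 or 3 of day 3. Cxcl16 in vehicle was higher at day 3 without overlap but was not called (0.24 ± 0.11; adjusted p = 0.0747). It was called without TMM (0.31; adjusted p = 0.0071), without a filter (0.19; adjusted p = 0.0472) and with only the compared groups (0.24; adjusted p = 0.0411).

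AA and PGE2 were also set against each other, at doses that differ (25 µM against 50 nM). At day 1 Ccl25 was 2.07-fold higher with AA (log2 1.05 ± 0.05; adjusted p = 4.5e-16), while Cxcl16 was 1.48-fold lower (-0.57 ± 0.08), Cx3cl1 1.20-fold lower (-0.26 ± 0.07) and Il18 1.70-fold lower (-0.77 ± 0.08). The other 4 tested genes were not called (27.7% of all genes called, 11.3% higher and 16.5% lower). The Cx3cl1 call was lost without TMM (adjusted p = 0.0630). Tnf differed by -0.20 with a 95% interval from -0.48 to 0.09, and Ccl20 by 0.31 with an interval from -0.26 to 0.88. At day 3, 6 genes were lower with AA and Ccl25 was higher (0.42 ± 0.05), where 38.5% of all genes were called (18.1% higher and 20.3% lower). Cxcl5 was 2.86-fold lower (-1.52 ± 0.39; adjusted p = 0.0025), Tnf 1.57-fold (-0.65 ± 0.15), Ccl20 1.65-fold (-0.73 ± 0.24; adjusted p = 0.0185, lost without AA replicate 2 or PGE2 replicate 1), Cxcl16 1.53-fold (-0.62 ± 0.09), Il18 1.4-fold (-0.49 ± 0.08) and Cx3cl1 1.30-fold (-0.38 ± 0.07). Cxcl1 at day 3 was not called (-0.93, 95% interval -1.88 to 0.02; adjusted p = 0.0924).

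The size of the response differed between days for Cxcl16, Cx3cl1, Tnf and Ccl25. The AA response was smaller at day 3 than at day 1 for Cxcl16 (difference of log2 fold changes -0.95 ± 0.14; adjusted p = 4.2e-05) and Tnf (-1.13 ± 0.22; adjusted p = 4.4e-04), and larger for Cx3cl1 (0.41 ± 0.11; adjusted p = 0.0112). These were 3 of the 8 tested genes (18% of all genes called, 10% higher and 7.95% lower). The PGE2 response was smaller at day 3 for Cxcl16 (-0.91 ± 0.13; adjusted p = 2.8e-05) and Tnf (-0.68 ± 0.21; adjusted p = 0.0193), larger for Cx3cl1 (0.52 ± 0.11; adjusted p = 6.4e-04), and for Ccl25 the fall was smaller (0.82 ± 0.07; adjusted p = 3.2e-10). That is 4 of 8, beside 24.2% of all genes (12.6% higher and 11.6% lower). The Tnf call was lost without vehicle replicate 2 of day 1 or vehicle replicate 1 of day 3 (adjusted p up to 0.0808). The Il18 response to AA differed between days 1 and 3 by -0.01, with a 95% interval from -0.36 to 0.35. At day 6 the AA response was larger than at day 3 for Tnf (1.10 ± 0.29; adjusted p = 0.0071) and smaller for Cx3cl1 (-0.57 ± 0.13; adjusted p = 0.0021), 2 of 9 tested (19.1% of all genes called, 8.78% higher and 10.4% lower), while Il18 differed by 0.02, with an interval from -0.30 to 0.34. The fit of all 26 libraries had its own filter, which Cxcl1, Cxcl2 and Cxcl5 passed on few counts. Their differences from day 3 to 6 were 0.55 ± 0.73, 0.72 ± 0.98 and -1.19 ± 0.77, none of them called. The day 6 libraries form a separate set, so in these differences day and set cannot be told apart. The PGE2 response of Ccl20 from day 1 to 3 (1.05 ± 0.40; adjusted p = 0.0554) and the AA response of Cxcl16 from day 3 to 6 (0.51 ± 0.18; adjusted p = 0.0523) missed the threshold here but were called in 7 of 20 and 8 of 22 other fits.

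**Figure D3:**
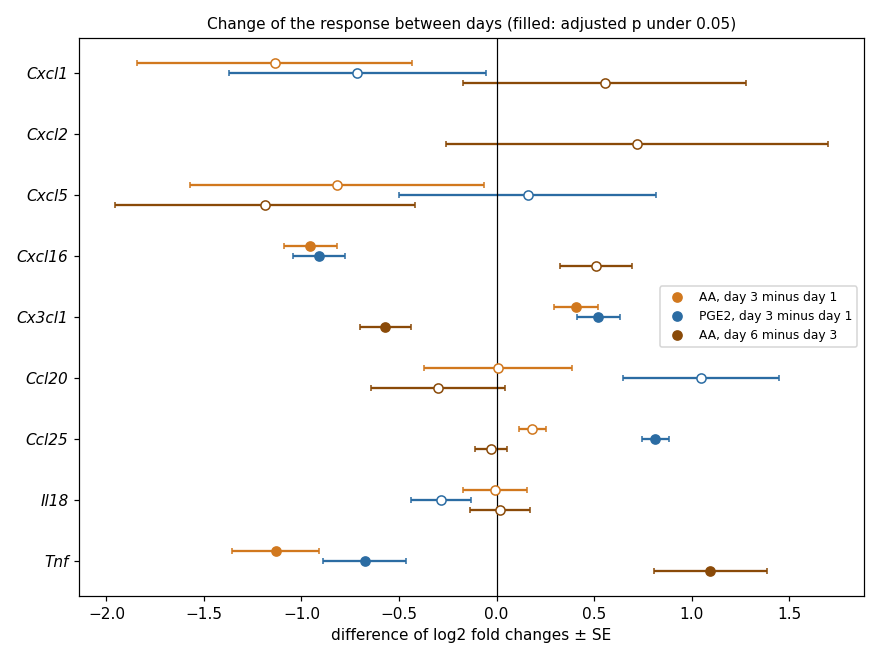
Difference between the log2 fold change against vehicle on a later and an earlier day for each tested gene; points are fitted differences, bars are ± SE and open points did not pass the threshold. Cxcl16 and Tnf lie below 0 for day 3 minus day 1 with both treatments, and Cx3cl1 lies above 0 there.

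The neighbouring steps of the pathway were described from lists of related genes, chosen with earlier results of these data known. The shares of all genes to read their counts against were 19.5% higher and 22.2% lower with AA at day 1, 27.0% and 28.9% with PGE2 at day 1, 21.2% and 20.1% with AA at day 3, 28.9% and 30.1% with PGE2 at day 3, and 15.3% and 15.5% with AA at day 6. Of 13 receptors for these ligands, 3 passed the filter at days 1 and 3, Il18rap, Tnfrsf1a and Tnfrsf1b, and 3 at day 6, Il18r1, Tnfrsf1a and Tnfrsf1b. Cxcr1, Cxcr2, Cxcr6, Ccr6, Ccr9, Cx3cr1 and Il18r1 were under 1 CPM in every group, with Ccr6 at 0 in all of them. Il18rap, the accessory chain of the interleukin 18 receptor, was at 0.252 ± 0.053 CPM with vehicle, 2.25 ± 0.31 with AA and 3.59 ± 0.48 with PGE2 at day 1. It was under 1 CPM in every other group, so it passed the filter through these treated libraries and its test is not used as support. Its day 3 levels were 0.383 ± 0.180 with vehicle, 0.839 ± 0.505 with AA and 0.756 ± 0.284 with PGE2, with AA overlapping vehicle and an adjusted p of 0.0480 for AA and 0.0805 for PGE2. Il18r1, the ligand-binding chain, was tested at day 6 (log2 -0.05; adjusted p = 0.921). Tnfrsf1b, a receptor of Tnf, rose from 26.7 ± 1.2 to 52.9 ± 0.7 CPM with AA at day 1 and to 59.4 ± 0.7 with PGE2, and from 19.2 ± 1.4 to 27.9 ± 1.2 and 41.4 ± 0.9 at day 3. At day 6 its log2 fold change was 0.04 (adjusted p = 0.874).

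Among 20 sheddase and inflammasome genes, 18 were tested, and 11 rose and 3 fell with AA at day 1 (41.7% of all genes called in either direction; median log2 fold change 0.23, -0.03 over all genes), and 10 and 4 with PGE2 (55.9% of all genes called). At day 3, 7 rose and 5 fell with AA and 11 and 5 with PGE2, and at day 6, 8 rose and 1 fell. Gsdmd, the pore protein through which interleukin 18 can leave cells, rose from 38.3 ± 1.0 to 82.2 ± 2.8 CPM with AA and 124 ± 4 with PGE2 at day 1 (log2 1.10 and 1.70), and by 1.48 and 2.10 at day 3 and 1.20 at day 6. Some inflammasome components fell at day 1: the adaptor Pycard fell from 109 ± 8 to 60.7 ± 1.4 CPM with AA (-0.84 ± 0.05) and to 20.8 ± 0.5 with PGE2 (-2.38 ± 0.06), and the sensor Nlrp6 from 217 ± 13 to 113 ± 1 and 46.9 ± 1.3 (-0.94 ± 0.05 and -2.21 ± 0.06). Casp1, whose product cleaves the interleukin 18 precursor and which was chosen after its values were seen, fell by 0.53 with AA and by 0.80 with PGE2 on the log2 scale at day 1. Other genes of this list went the other way. Aim2 rose from 4.16 ± 0.49 to 7.28 ± 0.40 CPM with AA at day 1, and Naip1 from 67.1 ± 1.7 to 120 ± 4 with AA at day 3. At day 6 Nlrp6 averaged 268 CPM with vehicle and 297 with AA, Casp1 averaged 63.1 and 64.0, and Pycard fell (-0.27 ± 0.07).

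Of 23 tested NF-kB feedback and target genes, 18 rose and 1 fell with AA at day 1 (median log2 fold change 0.49; 19.5% of all genes higher and 22.2% lower) and 17 and 2 with PGE2 (0.74; 27.0% higher and 28.9% lower). At day 3 the counts were 13 and 2 with AA (0.30) and 15 and 3 with PGE2 (0.52), and at day 6 they were 9 and 0 of 22 (0.19). Tnip3, a feedback inhibitor, rose from 1.42 ± 0.40 to 4.28 ± 0.68 CPM with AA and 5.11 ± 1.20 with PGE2 at day 1, and Csrnp1 from 2.74 ± 0.14 to 6.73 ± 0.99 and 13 ± 0.4. Sod2 of the same list fell from 102 ± 5 CPM to 83.2 ± 2.4 with AA and 67.1 ± 1.8 with PGE2 at day 1. Birc2 fell with PGE2 at day 1 (log2 -0.23 ± 0.07), and Nfkb1 fell with AA at day 3 (-0.21 ± 0.05). Nfkbia, chosen after its values were seen, averaged 31.3 CPM with vehicle, 35.7 with AA and 31.6 with PGE2 at day 1. At day 3 its means were 31.1, 37.6 and 32.5 CPM. Of 26 tested sensors of microbes and cytokines, 11 rose and 2 fell with AA at day 1 (median 0.11), 15 and 2 with PGE2 (0.30), 14 and 1 with AA and 16 and 3 with PGE2 at day 3, and 10 and 0 at day 6. The 13 of 26 called with AA at day 1 and 17 of 26 with PGE2 stand beside 41.7% and 55.9% of all genes, so the shares called in either direction are near the background. By direction the calls at day 1 were mostly rises, while all genes were split nearly evenly (19.5% higher and 22.2% lower with AA, 27.0% and 28.9% with PGE2). The list was chosen with earlier results known, so this is a description. Nod2, a sensor of bacterial peptidoglycan, rose from 0.969 ± 0.490 to 2.94 ± 0.57 CPM with AA and 4.74 ± 0.33 with PGE2 at day 1, while Nod1 fell with log2 fold changes of -0.94 and -1.98.

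Of 26 other chemokine genes only 2, Ccl28 and Ccl9, were tested at days 1 and 3. Ccl28, a mucosal chemokine for plasma cells, fell from 38.3 ± 0.3 to 21.3 ± 1.1 CPM with AA and to 11.7 ± 1.0 with PGE2 at day 1 (log2 -0.85 ± 0.07 and -1.70 ± 0.08), and from 38.2 ± 1.9 to 21.5 ± 1.0 and 11.6 ± 0.8 at day 3. Its day 6 value was -0.14 (adjusted p = 0.410). Ccl9, a chemokine for myeloid cells, rose with PGE2 at day 1 (0.44 ± 0.18; adjusted p = 0.0399), fell with AA at day 3 (-0.44 ± 0.13; adjusted p = 0.0050) and rose with AA at day 6 (0.19 ± 0.06; adjusted p = 0.0328), and was not called with AA at day 1 (-0.29) or PGE2 at day 3 (-0.07). Of 37 other cytokine genes 17 were tested, and 8 rose and 3 fell with AA at day 1 (41.7% of all genes called) and 9 and 5 with PGE2 (55.9%). At day 3 the counts were 6 and 2 and 9 and 5, and at day 6 they were 3 and 1 of 14. The largest rise was that of Il33, an alarmin of the interleukin 1 family like Il18, whose level was 2.99 ± 0.84 CPM with vehicle, 18.1 ± 0.5 with AA and 101 ± 2 with PGE2 at day 1 (log2 2.60 ± 0.13 and 5.08 ± 0.11). Il34, a ligand of the receptor Csf1r, was at 0.473 ± 0.147 CPM with vehicle, 2.36 ± 0.50 with AA and 3.84 ± 0.65 with PGE2 at day 1. It was under 1 CPM in every vehicle group, so it passed the filter through treated libraries. Its test is not used as support, though Il34 is among the genes counted as risen at days 1 and 3. Tnfsf10, the death ligand TRAIL, fell at day 1 from 2.72 ± 0.68 CPM to 1.09 ± 0.50 with AA and 0.357 ± 0.182 with PGE2.

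**Figure D4:**
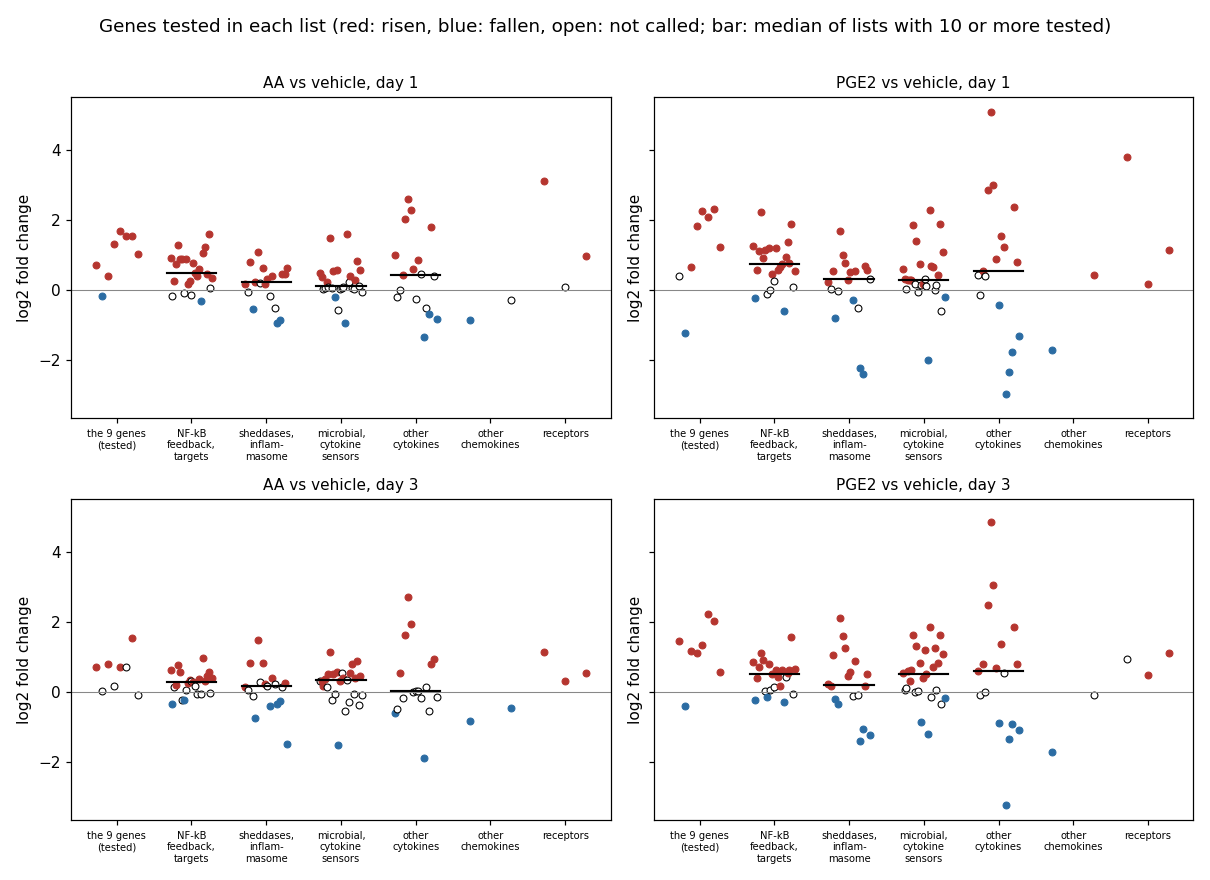
Log2 fold change of every tested gene in each list at days 1 and 3; red points rose, blue points fell, open points were not called, and bars are medians of lists with 10 or more tested genes. The NF-kB list has medians of 0.49 and 0.74 at day 1 with AA and PGE2.

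Genes whose profile over the 18 libraries of days 1 and 3 lay closest to a given gene were found by the root mean square difference of centred log2 CPM. Nearest to Cxcl16 were Rdh10 at 0.086, Sema3c at 0.13 and Epha2 at 0.15. Nearest to Il18 were Bmp8b at 0.12, S100a14 at 0.14 and Ildr1 at 0.14. Cx3cl1 lay nearest to Sulf2 at 0.075, Rab31 at 0.10 and Acsl5 at 0.11. Ccl25 had Aldh9a1 at 0.13, Tnfrsf11a at 0.14 and Gsta3 at 0.14. For Tnf the nearest were Nfkb2, Actn1 and Tuft1, each between 0.18 and 0.19. The sparse genes had looser neighbours: Plk2 at 0.21 for Cxcl5, Abcb1b at 0.29 for Ccl20 and Chrnb1 at 0.41 for Cxcl1. The libraries share groups, days and depth, so a small difference describes a like pattern over them.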

How the data were processed

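The 26 RNA libraries were strand-marked (NEBNext Ultra II Directional), per the labels' protocols. The values are raw read counts per gene, as the authors deposited them in 2 tables (days 1 and 3, and day 6), and 0 library columns were left unmatched. The tools named, with no roles, are limma 3.46, DESeq2, STAR and cutadapt, per the submitters' processing notes, which give the build as GRCh38.p6, a human one, while the identifiers are mouse Ensembl identifiers. The counter, its strand setting and its treatment of reads shared by related genes remain not given in the sources used here. Gene names matched 55144 of 55385 identifiers, and exon lengths came from GENCODE M21, where all 9 versioned identifiers matched.

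Tests ran in edgeR 4.0.16 under R 4.3.3 on these counts (filterByExpr, TMM, robust quasi-likelihood fit, 1 mean per group): days 1 and 3 with 18 libraries (14850 genes, 12 residual df), day 6 with 8 (14663 genes, 6 df) and, for the change of response from day 3 to day 6, all 26 (15504 genes). There were 11 comparisons, each with Benjamini-Hochberg adjusted p-values and a threshold of 0.05. SE comes from the quasi-likelihood F statistic. Intervals are 95%, from a t distribution with the residual df of the fit. The test itself shares the spread across genes and so has more df. An interval can therefore hold 0 where the unadjusted p is under 0.05, as for Cxcl1 with AA against PGE2 at day 3 (unadjusted p = 0.0408 in the quasi-likelihood test). The procedure was tested on simulated data. Alternatives were no TMM, DESeq2 1.42.0, limma-voom 3.58.1, no filter or a 1 CPM filter on low counts, leaving out rRNA-like and mitochondrial genes, a replicate block, only the groups compared, and leaving out each library. Depth was 1.01e+07 to 1.98e+07 counts, and values under 1 CPM rest on few counts.

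The members and lists were chosen with earlier results of these data known. Named were all 9 genes, at most 2 genes per list, direction and treatment comparison with the largest change past the threshold, and the 3 nearest profiles of each called gene, of which some are printed. Motifs were searched on both strands of RefSeq promoters.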

Additional observations from a re-analysis of the deposited data

Results flagged for a closer look

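The following 9 differences of responses between days passed the test of the difference itself, as differences of log2 fold changes in edgeR with Benjamini-Hochberg adjustment. For AA at day 3 against day 1 these were Cxcl16 at -0.95, Tnf at -1.13 and Cx3cl1 at 0.41. For PGE2 at day 3 against day 1 they were Cxcl16 at -0.91, Tnf at -0.68, Ccl25 at 0.82 and Cx3cl1 at 0.52, 4 of 8 tested (24.2% of all genes called). The Tnf call for PGE2 was lost without vehicle replicate 2 of day 1 or vehicle replicate 1 of day 3. For AA at day 6 against day 3 they were Cx3cl1 at -0.57 and Tnf at 1.10, 2 of 9 tested, close to the 19.1% of all genes called. Day and set of libraries cannot be told apart in the day 6 differences. Each treatment's response at a given day was taken against the vehicle libraries of that day, so the AA and PGE2 differences share vehicle libraries. In no group of 4 libraries did 1 library stand apart far enough to be marked as an outlier for any of the 9 genes. Only the day 6 groups were checked, not the groups of 3 libraries at days 1 and 3. A library that was not marked can still decide a call. Cx3cl1 in vehicle replicate 4 of day 6 was at 34.8 CPM, beside 27.1, 25.4 and 27.1 in the others. Leaving it out moved the adjusted p of Cx3cl1 with AA at day 6 from 0.0732 to 0.00173.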

How the results depend on the processing

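Members called kept their number within 1.5 times in every alternative fit except vehicle at day 3 against day 1 (1 call), where DESeq2 gave 0 and no filter gave 2. The number can hide a change of gene: without TMM, and with only the groups compared, the 1 vehicle call was Cxcl16 in place of Cx3cl1. Leaving out each library in turn gave 6 to 9 calls for AA at day 1 (8 with all libraries), 3 to 4 at day 3 (4) and 3 to 5 at day 6 (4), 7 to 7 for PGE2 at day 1 (7) and 8 to 9 at day 3 (8), 4 to 4 and 7 to 8 for AA against PGE2 at days 1 and 3 (4 and 7), 0 to 1 for vehicle (1), and 3 to 4, 3 to 5 and 2 to 3 for the changes of response to AA from day 1 to 3, to PGE2, and to AA from day 3 to 6 (3, 4 and 2). Of single-gene values, 1262 kept their direction and side of the threshold, 42 lost a call, 22 gained one and 45 changed sign, all of the last in genes not called. Sign changes were, without TMM, Ccl25 with AA at day 3 (-0.042), in vehicle (0.033) and in the AA response from day 3 to 6 (0.046); without a filter, Il18 in the AA response from day 1 to 3 (0.0047); and for Ccl20 in that response, -0.049 without TMM, -0.0022 in DESeq2, -0.11 in limma-voom, -0.016 with the 1 CPM filter, -0.017 with only the groups compared and -0.027 with the replicate block. With each library left out, the values that changed sign ranged for Ccl20 from -0.34 to 0.28 in the AA response from day 1 to 3, from -0.57 to 0.050 from day 3 to 6 and from -0.42 to 0.086 in vehicle. Ccl25 ranged from -0.00029 to 0.067 and from -0.028 to 0.047 with AA at days 3 and 6 and from -0.064 to 0.0062 in the AA response from day 3 to 6. Cxcl1 ranged from -0.14 to 1.04 with AA at day 3, from -0.60 to 0.75 in vehicle, from -1.23 to 0.10 in the PGE2 response and from -0.29 to 0.97 in the AA response from day 3 to 6, and Cxcl5 from -0.41 to 0.0067 in vehicle and from -0.052 to 0.36 in the PGE2 response. Il18 ranged from -0.070 to 0.080 and from -0.065 to 0.077 in the AA responses from day 1 to 3 and 3 to 6, and Tnf from -0.24 to 0.051 with AA at day 3. The cause was not tested. Over all genes, total counts without TMM moved the split of higher and lower calls to 2459 and 3903 for AA at day 3 (3143 and 2986 with TMM), 2570 and 1746 for AA against PGE2 at day 1 (1671 and 2448), 3726 and 2042 for vehicle (2943 and 3039), 986 and 1410 for the AA response from day 1 to 3 (1487 and 1181), 2221 and 1277 for the PGE2 response (1876 and 1716), and 1747 and 1020 for the AA response from day 3 to 6 (1362 and 1607). With only the groups compared that last response had 1812 calls in place of 2969. Of 45 same-numbered pairs at days 1 and 3, 3 had a correlation of deviations over 0.1 (median -0.0049), as did 1 of 4 at day 6 (median 0.077). At days 1 and 3, 8 of 18 libraries correlated best with their own number, and at day 6, 3 of 8. The number to be met without pairing was not computed, so these values cannot exclude pairing by replicate number. With the replicate block, 2 single-gene calls were gained, the PGE2 response of Ccl20 (1.05; adjusted p = 0.0360) and the AA response of Cxcl16 from day 3 to 6 (0.50; adjusted p = 0.0497). Depth limits Cxcl1, Cxcl2 and Cxcl5, whose vehicle libraries hold few counts.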
